A study of Mus musculus with 6 samples.

Results

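The 10 genes described here regulate or mark the first steps of the erythroid and megakaryocyte lineages: Gata1, Zfpm1, Tal1, Gfi1b, Klf1 and Nfe2, which encode transcription factors or cofactors, the erythropoietin receptor gene Epor, the carbonic anhydrase genes Car1 and Car2 and the water channel gene Aqp1. They were chosen by name, and each matched 1 of the 55487 genes of the deposited table. RNA was taken from mouse bone marrow LSK cells, the Sca-1 and Kit positive cells without lineage markers, among which stem cells and early progenitors of the blood are found. Wild-type littermates gave 3 libraries and Mc5r-/- mice, which lack the melanocortin 5 receptor and are called Mc5r-null below, gave the other 3. According to the series' design text the mice had been irradiated, so this holds for both genotypes. The labels used here state neither dose, time after irradiation, strain, age and sex nor the number of mice behind a library. Where nothing says that libraries came from separate animals, p-values and SDs measure no more than how these libraries varied, and that variation may be technical.

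GATA1 is the zinc finger factor on which red cell and megakaryocyte maturation depends. It acts with its cofactor FOG1, the product of Zfpm1, and with a complex built on TAL1, and GFI1B, KLF1 and NF-E2 carry the programme on in precursors of red cells and platelets. Some of these genes are already transcribed at low level in stem and multipotent cells, which is called lineage priming. Carbonic anhydrases and the AQP1 channel are abundant in red cells, where they handle carbon dioxide, bicarbonate and water.

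Total gene counts were between 14903723 and 14953169 in the wild-type libraries and between 13983016 and 14076870 in the Mc5r-null libraries. The targeted gene Mc5r had 181, 157 and 198 counts in wild type and 0, 0 and 1 in Mc5r-null (replicates 1, 2 and 3). All 5 transcripts of the LSK gate and its progenitors that were looked for (Kit, Ly6a, Ptprc, Cd34 and Flt3) were present, and their CPM (counts scaled to a common library total) summed to 1464 to 1530 in wild type and 1694 to 1806 in Mc5r-null. The genotypes also differed in sex-linked transcripts. Xist, the RNA of the inactive X chromosome, had 1224, 1167 and 1281 counts in wild type and 0, 2 and 2 in Mc5r-null. In the same libraries 4 Y-linked genes summed to 139 to 170 CPM in wild type and 175 to 177 CPM in Mc5r-null. Every wild-type library thus held both Xist and Y-linked transcripts, and the Mc5r-null libraries held almost no Xist. Sex makeup and genotype therefore cannot be told apart in any result below, and Gata1 lies on the X chromosome.

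Epor, Car1, Car2 and Aqp1 were higher in Mc5r-null LSK cells, and none of the 6 factor genes passed the test in either direction. The calls of Car1, Car2 and Aqp1 were made in all 16 alternative analyses, and that of Epor was lost in 9 of them. Genes were called at a Benjamini-Hochberg adjusted p under 0.05 over all 15257 genes tested with edgeR's quasi-likelihood test, and all 10 genes passed its filter on low counts. By this rule 4 of the 10 were called higher and 0 lower, against 16.8% of all tested genes called higher and 16.1% called lower. Epor, at 0.669, 0.670 and 1.54 CPM in wild type, passed the filter only through the Mc5r-null libraries, where it was higher. A call of Epor could therefore hardly go the other way. The median log2 fold change of the 10 was 0.46, and that of all tested genes was -0.00. With DESeq2 3 of the 10 were called higher and 0 lower, against 10.9% and 9.48% of all genes. For 5 of the 10 there was no overlap between the 2 genotypes, a share near the 49.8% of all genes tested. In bulk RNA, a change in the share of cells of a type and a change in RNA per cell cannot be told apart.

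**Figure D1:**
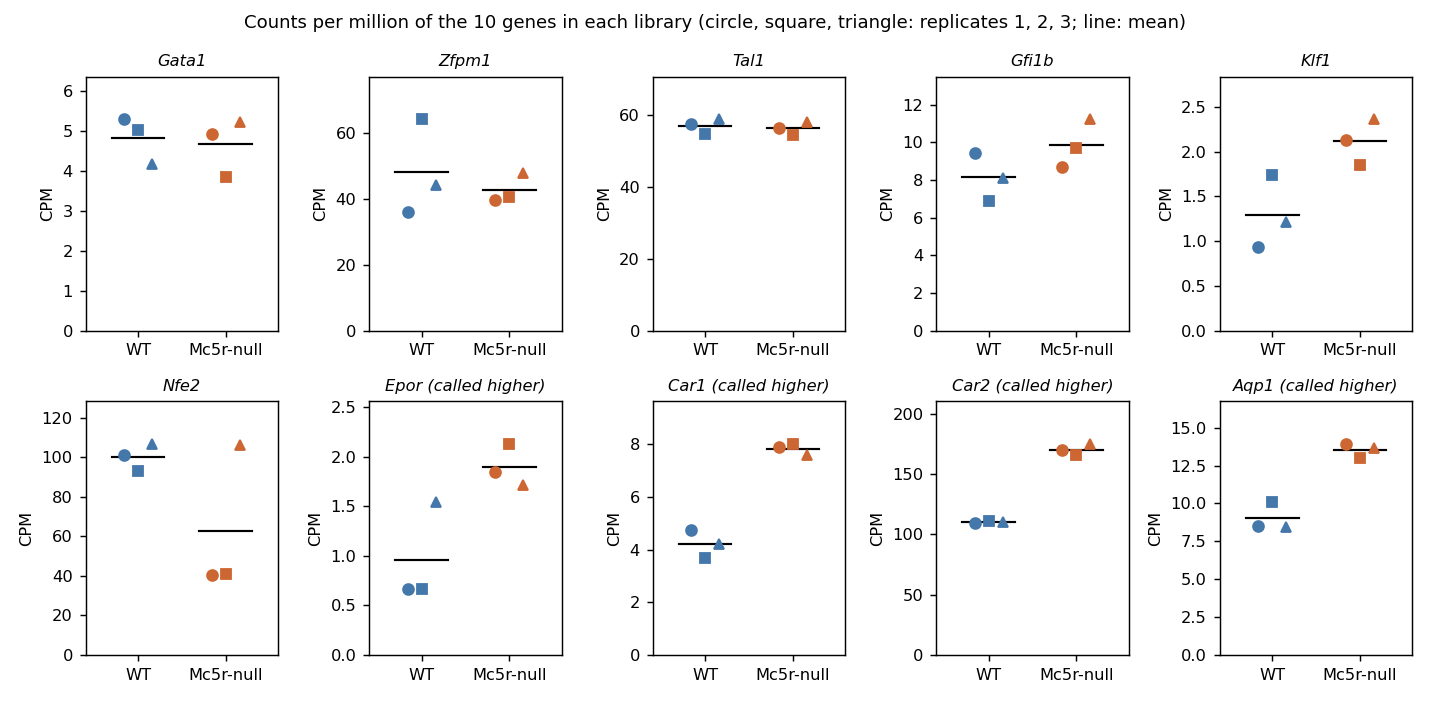
CPM of each of the 10 genes in the 3 wild-type (blue) and 3 Mc5r-null (orange) libraries, with circles, squares and triangles for replicates 1, 2 and 3, a line for the mean and an axis from 0 in each panel. Car1, Car2 and Aqp1 separate clearly by genotype, Epor and Klf1 separate by a small gap, and single libraries stand apart for Nfe2 (Mc5r-null replicate 3, 106 CPM) and Zfpm1 (wild-type replicate 2, 64.2 CPM).

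Levels of different genes can be set side by side only per gene length, for which the deposited FPKM values were used. In wild type Car2 was the highest of the 10, at 36.0 ± 0.207 FPKM (SD, n = 3). Nfe2 (10.9 ± 0.757 FPKM) and Zfpm1 (9.87 ± 2.97 FPKM) followed, and their library values overlapped. Tal1 came next at 5.64 ± 0.201 FPKM, above Aqp1 at 3.43 ± 0.361 FPKM. Gfi1b (2.57 ± 0.399 FPKM) and Car1 (2.30 ± 0.290 FPKM) overlapped, and both were above Gata1 at 1.75 ± 0.213 FPKM. Klf1 (0.628 ± 0.199 FPKM) and Epor (0.428 ± 0.225 FPKM) were lowest and overlapped. In Mc5r-null the order of the means changed in 2 places. Car1, at 4.27 ± 0.125 FPKM, stood above Gfi1b, at 3.11 ± 0.403 FPKM, without overlap. Zfpm1 (8.75 ± 0.925 FPKM) and Nfe2 (6.80 ± 4.12 FPKM) changed places while overlapping. In Mc5r-null replicates 1 and 2 Nfe2, at 4.40 and 4.44 FPKM, lay below Tal1 and Aqp1, and in replicate 3 it had 11.6 FPKM.

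**Figure D2:**
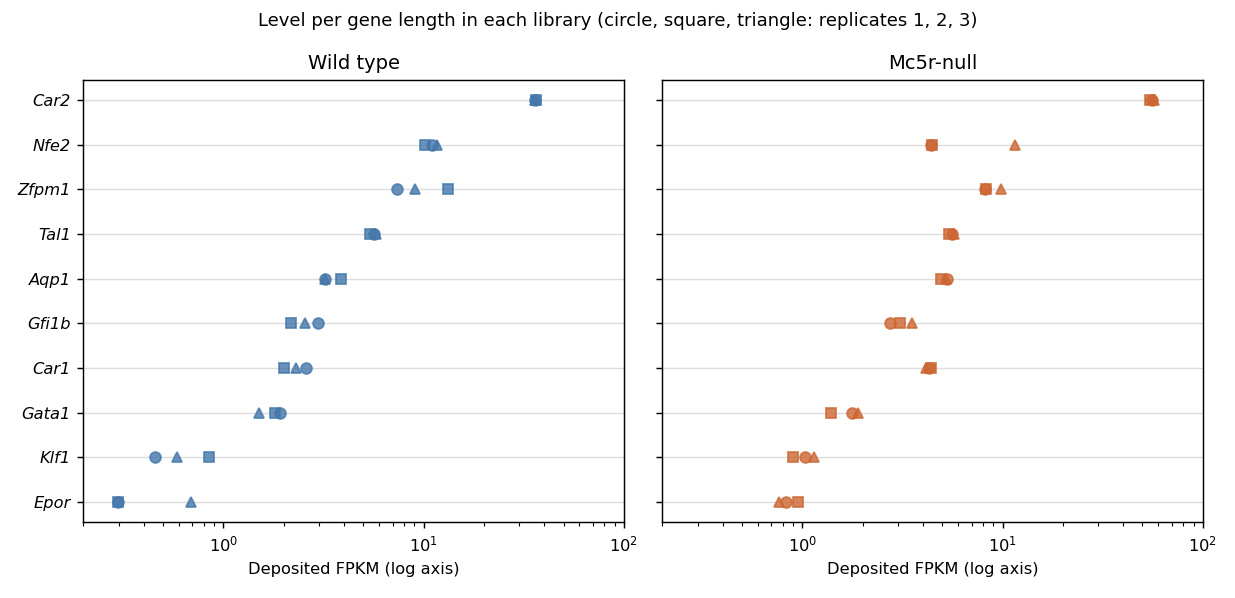
Deposited FPKM of the 10 genes on a log axis in wild type (left) and Mc5r-null (right), 1 point per library, ordered by the wild-type mean. Car2 lies highest, at 36.0 FPKM in wild type and 55.7 FPKM in Mc5r-null on average, and Klf1 and Epor lie lowest in both genotypes.

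Gata1 (ENSMUSG00000031162, GRCm38 chromosome X, positions 7959260 to 7978071, minus strand, protein-coding) was low in both genotypes. It had 5.28, 5.02 and 4.16 CPM in wild type, against 4.91, 3.84 and 5.22 CPM in Mc5r-null (replicates 1, 2 and 3). The groups overlapped, and the log2 fold change was -0.02 ± 0.16 SE with an approximate 95% interval of -0.38 to 0.34 (edgeR adjusted p = 0.948). Its sign turned when replicate 1 or 2 of wild type, or replicate 2 of Mc5r-null, was left out, and its values stayed within 0.12 of 0 when any 1 library was left out. Tal1 (ENSMUSG00000028717, chromosome 4, positions 115056426 to 115071755, plus strand) encodes the basic helix-loop-helix factor that blood stem cells need to form. Its 6 values lay within a narrow band, 57.4, 54.8 and 58.8 CPM in wild type, against 56.4, 54.6 and 57.9 CPM in Mc5r-null. The interval of its log2 fold change was the narrowest of the 6 factors, -0.09 to 0.12 around 0.02 (edgeR adjusted p = 0.822), with a sign that turned with scaling to library totals, on FPKM values and when replicate 2 of wild type or replicate 3 of Mc5r-null was left out.

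Zfpm1 (ENSMUSG00000049577, chromosome 8, positions 122282141 to 122337251, plus strand), the FOG1 gene, which the table's Galnt2l with 0 counts overlaps, varied more within wild type than between genotypes. Its wild-type values were 36.1, 64.2 and 44.2 CPM and its Mc5r-null values 39.7, 40.6 and 47.9 CPM. Wild-type replicate 2 was above all other libraries, and the other 5 overlapped. The log2 fold change was -0.14 (95% interval -0.77 to 0.49, edgeR adjusted p = 0.709) and turned to 0.12 without wild-type replicate 2. Gfi1b (ENSMUSG00000026815, chromosome 2, positions 28609450 to 28621982, minus strand) encodes a repressor needed for red cells and platelets. It had 9.43, 6.90 and 8.12 CPM in wild type, against 8.68, 9.73 and 11.2 CPM in Mc5r-null. The upper part of the Mc5r-null range lay above wild type but the groups overlapped, with a log2 fold change of 0.31 ± 0.14 SE (edgeR adjusted p = 0.132) that did not pass in any of the 16 alternatives.

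Klf1 (ENSMUSG00000054191, chromosome 8, positions 84901928 to 84905295, plus strand) encodes the Krüppel-like factor that switches on adult beta-globin and many other red cell genes. It had 14, 26 and 18 counts in the wild-type libraries and 30, 26 and 33 in the Mc5r-null libraries, or 0.936, 1.74 and 1.21 CPM against 2.13, 1.85 and 2.36 CPM. Every Mc5r-null library was above every wild-type library, by a gap smaller than counting error, since the same count of 26, with an exact 95% Poisson interval of 17.0 to 38.1 that covers counting error only, was seen in both genotypes. The log2 fold change of 0.74 ± 0.25 SE did not pass (edgeR adjusted p = 0.0546). Its approximate 95% interval, which is not adjusted for the number of genes, was 0.16 to 1.32. Without wild-type replicate 2 it did (edgeR adjusted p = 0.0222, log2 fold change 1.005), and its adjusted p was between 0.0537 and 0.228 in the other 15 alternatives.

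Nfe2 (ENSMUSG00000058794, chromosome 15, positions 103248212 to 103258403, minus strand) encodes the large subunit of NF-E2, which drives platelet release and globin transcription. Its counts were 1514, 1390 and 1594 in wild type and 569, 575 and 1486 in Mc5r-null. Mc5r-null replicates 1 and 2, at 40.5 and 40.8 CPM, were far below the wild-type values of 101, 93.1 and 107 CPM, while Mc5r-null replicate 3, at 106 CPM, lay among them. The difference between genotypes did not pass (log2 fold change -0.65, 95% interval -1.91 to 0.60, edgeR adjusted p = 0.362). Without Mc5r-null replicate 3 the gene was called lower (edgeR adjusted p = 8.36e-06, log2 fold change -1.27), which makes 1 of the 10 genes lower in that fit. A spread of this size between libraries of a genotype was rare. Among genes with at least 10 CPM in every Mc5r-null library, 133 of 9727 (1.37%) had a highest value at least 2 times the lowest, and Nfe2, at 2.63 times, was the only one of the 5 such genes described here. No other gene of the table overlaps Nfe2, and the cause of its spread was not tested.

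Epor (ENSMUSG00000006235, chromosome 9, positions 21958897 to 21963506, minus strand) encodes the receptor through which erythropoietin keeps erythroid precursors alive. It had 10, 10 and 23 counts in wild type and 26, 30 and 24 in Mc5r-null, which made it the scarcest of the 10 genes. Wild-type replicate 3, at 1.54 CPM, lay just below the lowest Mc5r-null library, at 1.72 CPM, and the exact Poisson intervals of these counts, 14.6 to 34.5 and 15.4 to 35.7, overlapped. Epor was called 2.02-fold higher, from 0.961 ± 0.505 to 1.90 ± 0.212 CPM (SD, n = 3 each, log2 fold change 1.01 ± 0.33 SE, edgeR adjusted p = 0.0459). The call rested close to the threshold. It was lost with DESeq2 (adjusted p = 0.143), with library totals (edgeR adjusted p = 0.0503), on FPKM values (limma adjusted p = 0.0513), with the replicate block (edgeR adjusted p = 0.0763) and without any 1 library except wild-type replicate 3 (edgeR adjusted p between 0.0729 and 0.130). Without wild-type replicate 3 the log2 fold change was 1.52 (edgeR adjusted p = 0.00546).

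Car1 (ENSMUSG00000027556, chromosome 3, positions 14766216 to 14808368, minus strand), the carbonic anhydrase typical of the erythroid lineage, was higher in all 3 Mc5r-null libraries. It had 4.75, 3.68 and 4.23 CPM in wild type, against 7.90, 8.03 and 7.58 CPM in Mc5r-null, with no overlap. The fold was 1.90, or 0.93 ± 0.12 SE on the log2 scale (edgeR adjusted p = 7.01e-04), and the log2 value stayed between 0.83 and 1.02 over the 16 alternatives. Car2 (ENSMUSG00000027562, chromosome 3, positions 14886273 to 14900770, plus strand), a high-activity isoform that is also present in cells outside the red lineage, had the most precise difference of the 10. Its counts were 1640, 1656 and 1641 in wild type and 2386, 2336 and 2452 in Mc5r-null. In CPM the wild-type libraries held 109.7, 111 and 110.1 and the Mc5r-null libraries 169.8, 166 and 175. The fold was 1.58 (log2 fold change 0.66, 95% interval 0.60 to 0.73, edgeR adjusted p = 6.58e-07), called in all 16 alternatives.

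Car1 and Car2 belong to a cluster of 4 carbonic anhydrase genes within 259 kb of chromosome 3, in the order Car13, Car1, Car3 and Car2, with 0 other protein-coding genes of the table between them. The cluster did not move as a block. Car3 had 2.81 ± 0.642 CPM in wild type, against 2.78 ± 0.180 CPM in Mc5r-null (edgeR adjusted p = 0.963). Car13 was called lower, at 7.17 ± 1.46 and 4.51 ± 0.480 CPM (log2 fold change -0.63), a call that DESeq2 did not make and that was lost when replicate 1 or 2 of wild type, or replicate 2 or 3 of Mc5r-null, was left out. Of the 14 other carbonic anhydrase genes of the mouse that were looked for, 5 passed the filter on low counts, 1 was called higher, 1 was called lower and 3 had no count in any library. The one called higher was the mitochondrial isoform gene Car5b, at 1.92 ± 0.411 and 3.25 ± 0.331 CPM, and it was not called with DESeq2 or without Mc5r-null replicate 1.

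Aqp1 (ENSMUSG00000004655, chromosome 6, positions 55336432 to 55348555, plus strand) encodes the water channel of the red cell membrane, which endothelium also carries. It had 8.49, 10.1 and 8.45 CPM in wild type, against 13.9, 13.0 and 13.7 CPM in Mc5r-null. The groups did not overlap, and the fold was 1.54 (log2 fold change 0.62 ± 0.10 SE, edgeR adjusted p = 0.00185), called in all 16 alternatives. Of the 11 other aquaporin genes looked for, 2 passed the filter and 6 had no count in any library. Aqp9, a channel for water and small solutes in leukocytes, rose as well, from 9.42 ± 0.453 to 13.8 ± 1.30 CPM, and Aqp11 had 1.61 ± 0.0657 and 1.59 ± 0.153 CPM (SD, n = 3 each).

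**Figure D3:**
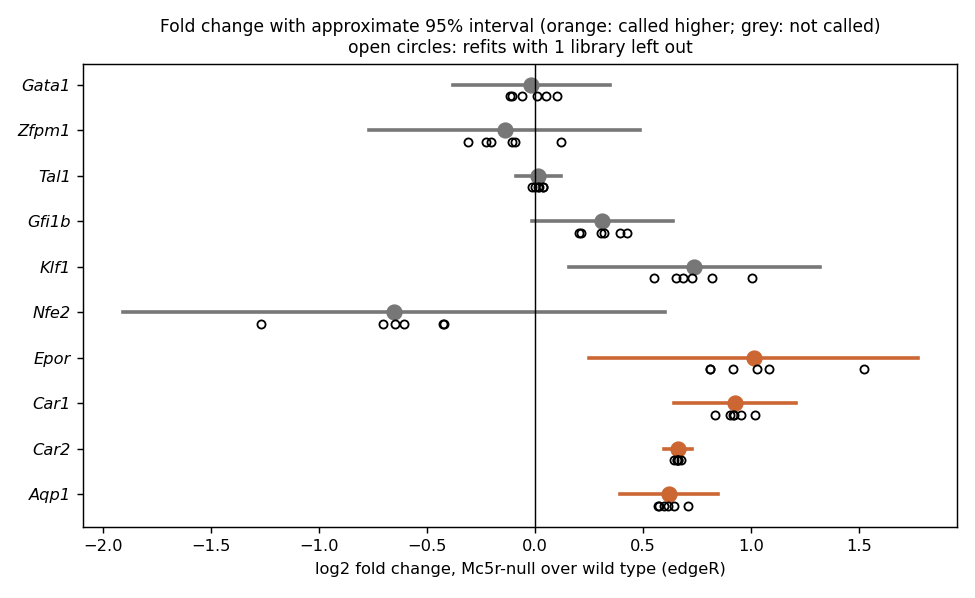
Log2 fold change of Mc5r-null over wild type for the 10 genes, with the approximate 95% interval of the edgeR fit (bars) and the values of the 6 refits that each leave out 1 library (open circles). The intervals of Gata1, Zfpm1, Tal1, Gfi1b and Nfe2 cross 0, those of Car1, Car2 and Aqp1 lie well above it, and the open circle of Nfe2 at -1.27 is the fit without Mc5r-null replicate 3.

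Epor and Aqp1 are the called genes with a promoter in the RefSeq table of GRCm38.p6, which held 7 of the 10 genes and lacked Nfe2, Car1 and Car2. The bases before their annotated start sites are shown because GATA1, TAL1, KLF1 and NF-E2 each have a known binding motif that can be looked for in them. They run 5′ to 3′ on the gene's strand, chr9:21963577-21963826 (minus strand) for Epor and chr6:55336049-55336298 (plus strand) for Aqp1. Capitals mark matches, on either strand, to AGATAA (the GATA box) or CCACCC (called a CACCC box here). They also mark CAGNTG (an E-box) and TGANTCA (the shared core of NF-E2 and AP-1 sites), where N is any base. CCACCC finds the letters CACCC only after a C, so KLF1 sites with another base there are missed.
Epor: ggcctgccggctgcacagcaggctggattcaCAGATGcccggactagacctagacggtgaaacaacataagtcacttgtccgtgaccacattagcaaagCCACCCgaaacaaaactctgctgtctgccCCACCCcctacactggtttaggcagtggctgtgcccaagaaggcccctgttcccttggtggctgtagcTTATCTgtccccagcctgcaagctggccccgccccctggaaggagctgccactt
Aqp1: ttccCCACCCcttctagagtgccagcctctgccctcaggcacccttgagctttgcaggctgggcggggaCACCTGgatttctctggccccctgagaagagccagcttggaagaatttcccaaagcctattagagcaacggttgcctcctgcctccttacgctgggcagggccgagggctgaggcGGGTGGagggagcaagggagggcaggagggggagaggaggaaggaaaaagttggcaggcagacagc
The Epor stretch held 1 GATA box, whose first base lies at position -54 from the RefSeq start site, 2 CACCC boxes and 1 E-box. The Aqp1 stretch held no GATA box, 2 CACCC boxes and 1 E-box. Neither held the NF-E2 core. Both RefSeq start sites lie upstream of the 5′ ends of the genes given above (21963506 for Epor and 55336432 for Aqp1). Counted from those ends, the matches would lie further upstream. CACCC boxes and E-boxes can share bases, and no matches overlapped in these stretches. In whole windows, from 250 bases before to 50 after the start site, 1 of the 2 Tal1 windows also held a GATA box, and the windows of Gata1, Zfpm1, Gfi1b and Klf1 held none. Over all 32851 windows of the table, 11.2% held a GATA box, 31.5% a CACCC box, 51.4% an E-box and 7.81% the NF-E2 core. A match here is a stretch of letters and not a measured binding site.

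The next counts stand beside the 32.9% of all tested genes that were called in either direction. A scarce gene can pass the filter on low counts through a single genotype, where it is high, and its direction is then nearly fixed. Of 13 genes of the GATA1 and TAL1 complex and partner factors, 2 were called higher and 2 lower (median log2 fold change 0.06). The adaptor gene Ldb1, whose product bridges the complex, rose 1.13-fold and the ETS factor gene Erg 1.18-fold, from 87.9 ± 3.19 to 102 ± 2.41 CPM (SD, n = 3 each). Myb, a factor of proliferating progenitors, fell 1.14-fold from 657 ± 4.24 to 563 ± 8.69 CPM and Fli1, an ETS factor of megakaryocytes, 1.09-fold. With DESeq2, or when replicate 3 of wild type or replicate 2 of Mc5r-null was left out, 1 of them was called lower. Of 15 corepressor genes bound by GFI1B and FOG1, 4 were called higher and 1 lower (median -0.00). The remodeller gene Chd4 rose 1.06-fold, the complex subunit genes Mta1 1.08-fold and Gse1 1.12-fold and the histone demethylase gene Kdm1a 1.12-fold, while the histone-binding gene Rbbp4 fell 1.13-fold. With library totals, with DESeq2 and on FPKM values, 1 of these genes was called higher (with library totals 2 were lower), and 2 were when replicate 3 of wild type, or replicate 1 or 2 of Mc5r-null, was left out. Of 7 tested genes of small MAF and CNC proteins, the partners and relatives of NFE2, 0 were called higher and 1 lower. That was Nfe2l2, the NRF2 gene, which fell 1.32-fold from 75.3 ± 2.06 to 55.8 ± 3.16 CPM, and with library totals 2 were lower.

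Of 7 factor genes that oppose GATA1 or drive the granulocyte and monocyte lineages, 5 were called lower and 0 higher (median log2 fold change -0.53). Spi1, which encodes PU.1, a factor that binds and antagonises GATA1, fell 1.13-fold from 225 ± 2.97 to 194 ± 3.36 CPM (SD, n = 3 each). Cebpa, the factor gene of granulocyte-monocyte commitment, fell 1.45-fold from 174 ± 3.32 to 117 ± 15.5 CPM, Cebpe 1.70-fold, Klf4 1.52-fold and Gfi1, the myeloid relative of Gfi1b, 1.25-fold. Irf8 had 142, 293 and 262 CPM in wild type, against 153, 157 and 155 CPM in Mc5r-null. Cebpb had 89.7 ± 0.0763 and 92.1 ± 0.696 CPM, with all 3 Mc5r-null libraries above wild type (log2 fold change 0.07). Neither Irf8 nor Cebpb passed the test. Relatives thus differed in the test: Gfi1 was called lower and Gfi1b was not called, although the difference between them was not tested.

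In the list for signalling from the erythropoietin receptor, 6 of 17 genes were called higher and 1 lower (median log2 fold change 0.12). Pim1, a kinase gene induced by STAT5, rose 1.30-fold from 646 ± 33.0 to 820.1 ± 13.2 CPM and Stat5b 1.11-fold. Kit, which encodes the stem cell factor receptor, rose 1.09-fold, and the kinase gene Lyn fell 1.13-fold. Many of these genes also serve other cytokine receptors of LSK cells. Without wild-type replicate 1, 2 were lower.

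Genes of later erythroid cells had the largest median among the 10 lists of related genes. Of 20 tested, 17 were called higher and 0 lower, with a median log2 fold change of 1.33 against -0.00 for all genes. Some of the scarcest passed the filter only through the Mc5r-null libraries. Alas2, for example, had 0, 4 and 6 counts in wild type and 28, 31 and 35 in Mc5r-null. Hbb-bt rose from 9.24 ± 0.393 to 41.4 ± 0.787 CPM and Hba-a1 from 9.69 ± 0.967 to 77.4 ± 0.844 CPM (SD, n = 3 each), and reads of paired globin genes can be split between near-identical copies. Add2, Fech and Slc25a37 were not called. With DESeq2 12 were called higher and 0 lower. Summed over the list, the libraries held 159 to 161 CPM in wild type and 306 to 331 CPM in Mc5r-null. Slc25a37 and Fech, at 81.1 and 28.8 CPM on average, made up most of the wild-type sums, and the globin genes most of the rise. Of the factor genes, Klf1 had a log2 fold change of 0.74 (95% interval 0.156 to 1.317) that did not pass. Gata1 had one of -0.02 (95% interval -0.380 to 0.345) that did not pass either. Whether the rise of the later erythroid genes is related to either factor was not tested. Of 15 genes of early erythroid and megakaryocyte-erythroid progenitors, 6 were higher and 3 lower (median 0.12), and 3 and 1 with DESeq2. The mucin gene Muc13 rose 1.30-fold from 221 ± 5.13 to 282 ± 6.49 CPM and Ctse, an aspartic protease gene, 1.63-fold. The haem pathway gene Tmem14c fell 1.27-fold, the transferrin receptor gene Tfrc 1.08-fold and Mfsd2b, a sphingolipid exporter gene, 1.39-fold.

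Megakaryocyte genes were mixed. Of 14 tested of 18, 4 were called higher and 2 lower (median log2 fold change 0.10). Among those called higher, Selp, the gene of the platelet adhesion receptor P-selectin, rose 1.84-fold from 28.4 ± 2.82 to 51.1 ± 6.34 CPM (SD, n = 3 each). Vwf, the von Willebrand factor gene, rose 1.38-fold, and Rab27b rose from 4.02 ± 0.464 to 5.91 ± 0.194 CPM. The platelet chemokine gene Pf4 fell 2.08-fold and the tetraspanin gene Cd9 1.26-fold. Itga2b, the platelet integrin gene whose promoter is a classical GATA1 target, had 67.7 ± 3.35 and 66.5 ± 2.21 CPM.

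**Figure D4:**
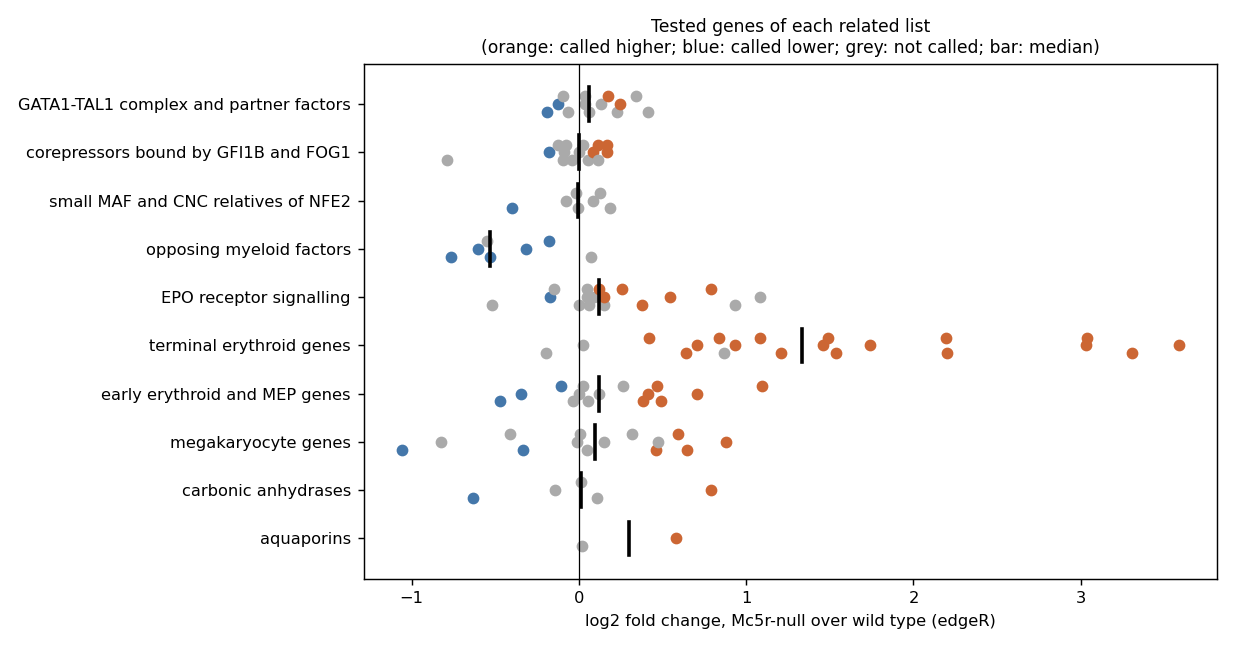
Log2 fold change of every tested gene of the 10 related lists, coloured by call, with a bar at the median of each list. Genes of later erythroid cells lie furthest to the right, with a median of 1.33, the opposing myeloid factors have a median of -0.53, and the medians of the partner and corepressor lists are 0.06 and -0.00.

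Markers of other cells, some of which transcribe genes of the 10, moved with genotype as well, except those of marrow macrophages, which were mixed. Gata1 is also used by mast cells, basophils and eosinophils. Of 8 tested mast cell and basophil markers, 0 were higher and 6 lower, and the list summed to 486 to 527 CPM in wild type and 258 to 314 CPM in Mc5r-null. The mast cell protease genes Cma1 and Tpsb2, defining markers of mature mast cells, had no count in any library. Of 6 eosinophil markers, 0 were higher and 5 lower, with sums of 201 to 210 CPM in wild type and 114 to 117 CPM in Mc5r-null. Aqp1 is also a gene of vascular endothelium, of whose 11 tested markers 10 were higher and 0 lower. Among them, Ptprb, Kdr and Stab2 passed the filter on low counts only through the Mc5r-null libraries, where they were higher. Ptprb, for example, had 4, 3 and 4 counts in wild type and 17, 16 and 23 in Mc5r-null. Calls of such genes could hardly go the other way. The list summed to 141 to 152 CPM in wild type and 196 to 206 CPM in Mc5r-null. Most of both sums came from Eng (mean 72.2 CPM in wild type, 84.1 CPM in Mc5r-null) and Tie1 (53.7 and 75.7 CPM). Cdh5, the VE-cadherin gene that defines endothelium, was not called, at 2.55 and 3.09 CPM on average. Long-term stem cell markers were 7 higher and 0 lower of 8, with sums of 108 to 144.5 CPM and 190.3 to 195 CPM. Plasma cell markers were 7 higher and 0 lower of 7, with sums of 1940 to 1990 CPM and 2950 to 5933 CPM. Most of these sums was Jchain, the immunoglobulin joining chain gene, at 1782, 1755 and 1743 CPM in wild type, against 5603, 5495 and 2619 CPM in Mc5r-null (replicates 1, 2 and 3). Marrow macrophage markers were 3 higher and 2 lower of 7 (1 and 1 with DESeq2, and down to 1 in either direction with the replicate block or without single libraries), with sums of 49.8 to 55.3 CPM and 48.1 to 55.6 CPM. The part of these cells in the values of the 10 genes was not tested.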

How the data were processed

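Poly-A RNA of 6 LSK libraries was sequenced in read pairs from a stranded kit, per the labels' protocols. Whole-number counts per gene, not normalized, and FPKM values were deposited by the authors, per the file headers. The submitters' processing notes name CASAVA 1.8, HISAT2, StringTie, edgeR and the build GRCm38, and the counter and its use of strand are not given in the sources used here. Gene positions are those of the deposited table, with strand and gene type from GENCODE M21.

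CPM were computed from each library's total count. Counts were tested in R 4.3.3 with edgeR 4.0.16 (filterByExpr with a minimum count of 10 and total of 15, TMM scaling, robust quasi-likelihood F-test, Benjamini-Hochberg adjustment over 15257 genes). Standard errors and intervals of log2 fold changes are approximate, from the F statistic. Alternatives used DESeq2 1.42.0, limma 3.58.1 (voom, and log2 of FPKM with a pseudocount of 0.1), other scalings and filters, the replicate number as a block and fits without each library, and the code was tested on simulated counts. Libraries of a genotype differed beyond sampling noise (mean chi-square per gene 6.12 to 8.37), so none were merged, but the median gene was close to it (0.674 to 0.720 against 0.455).

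The members and lists were chosen with earlier results of these data known. Up to 4 genes with the smallest p were named per list, with any called in the opposite direction, except 1 gene that is not reported here. Kdm1a, Jchain, Cebpa, Cebpb, Irf8, Gatad2b, Maff, Add2, Fech, Slc25a37 and Rab27b were named after their values were seen. So were Itga2b, Cma1, Tpsb2, Cdh5, Eng, Tie1, Ptprb, Kdr, Stab2, Alas2, Xist and the Y-linked genes.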

Additional observations from a re-analysis of the deposited data

How the results depend on the processing

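Car1, Car2 and Aqp1 were called higher in all 16 alternatives. Counts of the 10 genes called higher were 3 or 4 in every alternative. Without wild-type replicate 2 they included Klf1 and not Epor. Without 1 library, the count called lower ranged from 0 to 1, the 1 being Nfe2 without Mc5r-null replicate 3. Fold changes close to 0 turned sign. Tal1 had a log2 fold change of -0.0176 with library totals and -0.0174 on FPKM values. Without 1 library at a time it ranged from -0.0142 to 0.0348, Gata1 from -0.12 to 0.10 and Zfpm1 from -0.31 to 0.12. Without the same libraries Epor ranged from 0.81 to 1.52 and Klf1 from 0.55 to 1.005. Over all genes, 2567 were called higher and 2456 lower, and DESeq2 called 1655 and 1446. Of the calls, 51.1% were higher, and 40.6% with limma on FPKM values. Over all tested genes, libraries with equal replicate numbers did not correlate between genotypes in their deviations from the genotype mean (0.00255, -0.0408 and -0.0240). A pairing that touches few genes would not show in this check. The labels do not say whether the numbers pair libraries. With the replicate block Epor lost its call (log2 fold change 1.03), 3 of the 10 genes were called, and 4235 of the 5023 calls over all genes were kept. For Klf1 and Epor, with 10 to 33 counts a library, depth limits the precision.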

Other observations

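Libraries that stood apart were also seen among the related genes, in different replicates for different genes. Of the related genes with at least 10 CPM in every library of a genotype, 3 of 70 in wild type and 1 of 77 in Mc5r-null had a highest value at least 2 times the lowest. Over all genes at that level the shares were 1.16% in wild type and 1.37% in Mc5r-null. Maff, a small MAF partner gene of NFE2, was low in replicate 3 of both genotypes, with 56.3, 56.7 and 22.1 CPM in wild type, against 60.8, 57.0 and 22.0 CPM in Mc5r-null, whereas Nfe2 itself was high in Mc5r-null replicate 3. Gatad2b, which encodes a NuRD subunit, had 38.1, 92.0 and 27.5 CPM in wild type, against 35.2, 35.0 and 18.9 CPM in Mc5r-null.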
